A study of Mus musculus with 6 samples.

Results

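Glypicans and syndecans are the main heparan sulfate proteoglycans of the cell surface, core proteins that carry long sulfated sugar chains. All 6 mouse glypican genes (Gpc1 to Gpc6) and all 4 syndecan genes (Sdc1 to Sdc4) were taken by name from the all-gene expression table, 10 of its 41126 genes. Their RNA was compared between dermal fibroblasts with a stabilized form of β-catenin, called gain of function (GOF), and control fibroblasts, with 3 libraries in each group. The comparison addresses which RNAs lie downstream of Wnt/β-catenin signaling in skin fibroblasts.

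The fibroblasts were grown from ventral skin of mice of mixed CD1 and C57Bl6 background at postnatal day 4, and each animal's cells were kept apart and passaged before infection. GOF cultures received Adenovirus-Cre, which excises exon 3 of Ctnnb1 from the Ctnnb1Δex3/+ allele, and control cultures received Adenovirus-GFP. The sample labels give +/+ as the control genotype, whereas the methods describe cells of the same transgenic mice. The treatment label names Adenovirus-Cre at 366 to 500 MOI (multiplicity of infection, the infectious units added per cell) for 6 h for every culture, controls included. The 6 h are the exposure to virus, and the paper sequenced RNA taken days after infection. The virus and the β-catenin allele changed together, so their effects cannot be told apart. The 6 cultures came from 4 animals. Animal 9852 gave Control replicate 0 and GOF replicate 2, and animal 9845 gave Control replicate 2 and GOF replicate 0. Animal 9844 gave Control replicate 1 and animal 9843 gave GOF replicate 1. Cultures of the same animal start from the same genotype. The +/+ label of Control replicates 0 and 2 is thus contrary to the Ctnnb1Δex3/+ genotype of the GOF cultures from the same animals.

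Glypicans are tethered to the outer membrane by a lipid anchor, and syndecans span the membrane with a short cytoplasmic tail. Their heparan sulfate chains bind Wnt, fibroblast growth factor, hedgehog and bone morphogenetic proteins as well as collagen and fibronectin, and they act as co-receptors and as stores of ligand at the fibroblast surface. The pattern of sulfate groups along the chain, set by enzymes in the Golgi and edited outside the cell, determines which ligands bind.

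The libraries held 35980831 to 42834467 fragments, where a fragment is 1 sequenced piece of cDNA assigned to a gene. Axin2, a direct β-catenin target, was at 0.14 to 0.18 FPKM (fragments scaled by transcript length and by mapped reads) in the controls and 14.4 to 19.2 FPKM in the GOF libraries (edgeR log2 fold change 6.98, adjusted p = 4.95e-05), while Ctnnb1 itself was at 254 to 285 and 246 to 297 FPKM. Of 10 fibroblast markers, all passed the filter on low counts, with a summed FPKM of 4312 to 5025 in the controls and 4049 to 4235 in the GOF libraries. Of 10 keratinocyte markers, summed at 0.57 to 0.96 and 3.10 to 4.54 FPKM, Krt14 was at 0 in 5 of 6 libraries and Dsg3 at 0 in all 6; Ivl made up most of the GOF sum. Summed FPKM was 5.04 to 5.33 and 3.36 to 7.18 for 8 endothelial markers, 13.3 to 23.0 and 10.6 to 29.1 for 8 macrophage markers, and 12.4 to 16.4 and 7.40 to 13.2 for 10 Schwann cell and melanocyte markers. The 8 skeletal muscle markers summed to 23.6 to 28.2 FPKM in the controls and 139 to 173 in the GOF libraries, nearly all of it Acta1, with Pax7 at 0 in every library. Single markers within these lists moved with the groups and are named after their values were seen. Past both thresholds in edgeR, Dcn (log2 fold change -1.67) and Col1a2 (-1.18) were lower among the fibroblast markers, whose median was -0.35. Kdr was higher (1.77) and Tek lower (-2.27) among the endothelial markers, whose median was 0.48. Csf1r was higher (1.52) among the macrophage markers, whose median was 0.22. Mlana was lower (-2.48) among the Schwann cell and melanocyte markers, whose median was 0.05. Ivl (3.25) and Acta1 (2.53) were higher. No other marker of these lists passed both thresholds, so the single markers do not stand for their lists. The part of other cells in the member genes' values was not tested, and in bulk RNA fewer cells of a type and less RNA per cell cannot be told apart. Both cultures of animal 9852 stood apart within their groups: the chi-square of counts per degree of freedom was 137 and 181 for Control replicate 0 against the other controls and 24.1 between those, and 134 and 133 for GOF replicate 2 against 60.7. The fold changes of the members tested are given with and without both cultures of this animal.

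Gpc1 rose 3.44-fold and Sdc2 rose 2.21-fold in GOF fibroblasts, and no member fell by 2-fold or more. Gpc1 replaced Gpc4 as the glypican with the highest FPKM, and Sdc2 was the syndecan with the highest FPKM in every GOF library. Gpc6 was 31.7% lower in the edgeR fit, past the adjusted p alone. By FPKM it was 0.825 times the control within animal 9852 and 0.770 times within animal 9845. Sdc1, Sdc4 and Gpc4 showed log2 fold changes within 0.14 of 0 between groups. Within the animals that had a culture in each group, Gpc4 was higher in GOF and Gpc3 was nearly equal. Of the 10 members, 9 passed the filter on low counts and were tested; Gpc5 did not pass. Genes were called when they changed by more than 2-fold with an adjusted p under 0.05 in edgeR's quasi-likelihood test on all 15462 genes that passed. Calls were 12.3% of all genes, 6.69% higher and 5.64% lower, against 2 higher and 0 lower among the members. At an adjusted p under 0.05 with any fold change, 21.2% of all genes and 3 members passed, Gpc1, Sdc2 and Gpc6. The median log2 fold change was 0.13 over the 9 members tested and -0.02 over all genes tested.

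**Figure D1:**
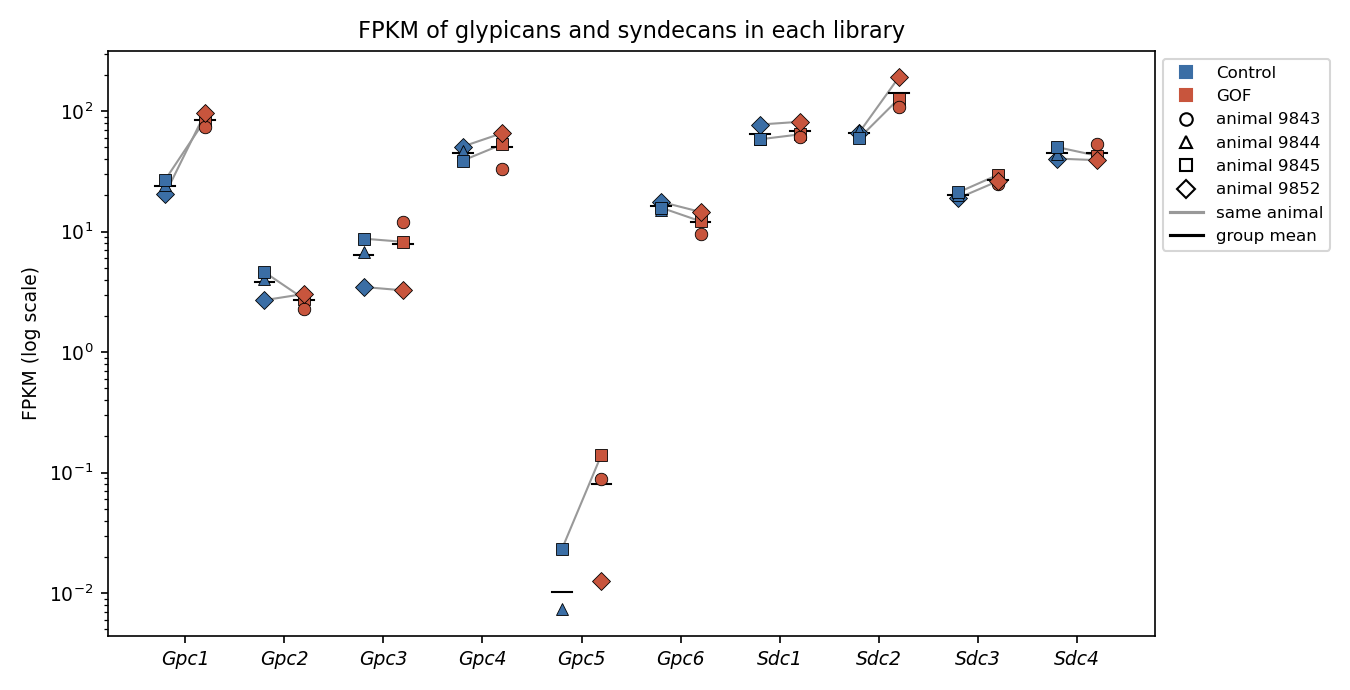
FPKM of each glypican and syndecan in the 6 libraries, on a log axis, with controls in blue and GOF in red. Symbols mark the animal, grey lines join cultures of 1 animal, and black bars are group means of 3 libraries. The Gpc1 and Sdc2 groups lie apart, with GOF higher, and the Gpc3 values of animal 9852 lie lowest in both groups. Gpc5 in Control replicate 0 is at 0 and is not drawn.

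A pair of sequence sets goes with the glypican results. Gpc1 (chr1:92831645-92860779, plus strand, GRCm38) holds the microRNA gene Mir149 on its own strand and outside every annotated Gpc1 exon. Its mature forms are shown because they lie inside the member that rose most. The seed, bases 2 to 8, is in capitals, from RefSeq on GRCm38.p6.
mmu-miR-149-5p: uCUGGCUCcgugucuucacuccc
mmu-miR-149-3p: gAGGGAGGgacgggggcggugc
The 5p form lies at chr1:92850381-92850403 and the 3p form at chr1:92850421-92850442, and the seeds differ. Mir149 was listed at 0 fragments in all 6 libraries, which were made for longer RNA, so mature microRNAs were not measured here.

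Gpc4 and Gpc3 are neighbours on the X chromosome, both on the minus strand, with 107 kb between the upstream end of Gpc4 and the downstream end of Gpc3 in GENCODE M21. Their promoters are shown because the genes lie side by side yet differed in level in every library, and because cultures of animal 9852 were lowest in Gpc3 and highest in Gpc4 in each group. Bases before the start that RefSeq gives are in lower case, and the first 50 bases from that start are in capitals. GENCODE M21, which gave the gene bounds, starts Gpc4 farther upstream, so that the whole stretch lies within its gene, and starts Gpc3 within the capitals.
Gpc3 (chrX:52613925-52614224, minus strand): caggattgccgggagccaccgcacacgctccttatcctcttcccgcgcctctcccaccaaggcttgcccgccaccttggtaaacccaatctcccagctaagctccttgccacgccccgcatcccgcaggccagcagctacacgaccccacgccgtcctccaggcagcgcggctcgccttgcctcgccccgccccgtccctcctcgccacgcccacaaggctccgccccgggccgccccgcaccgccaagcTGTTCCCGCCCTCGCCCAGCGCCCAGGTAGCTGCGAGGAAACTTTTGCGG
Gpc4 (chrX:52164874-52165173, minus strand): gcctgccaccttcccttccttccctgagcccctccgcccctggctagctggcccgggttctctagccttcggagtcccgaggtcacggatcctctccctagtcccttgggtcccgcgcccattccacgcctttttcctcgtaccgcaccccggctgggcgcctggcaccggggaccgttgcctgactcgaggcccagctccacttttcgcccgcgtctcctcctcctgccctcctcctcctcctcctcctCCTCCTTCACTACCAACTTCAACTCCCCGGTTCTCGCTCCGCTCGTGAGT
Both stretches are rich in G and C, at 70.7% for Gpc3 and 66.7% for Gpc4, where the median of all 32851 RefSeq promoters of this length was 52.7%. Of the members, 7 matched the promoter table, and Gpc1, Gpc6 and Sdc2 were not in it. Those 3 are the members with an edgeR adjusted p under 0.05, so the search below covers none of them. None of the 7 held CTTTGAT or CTTTGAA, letters bound by TCF and LEF factors, on either strand, and 3.73% and 5.14% of all promoters did. With shares this low, finding none among 7 says little.

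Gpc1 encodes a widely expressed glypican that binds fibroblast growth factors and Wnts. Its FPKM was 20.6, 24.6 and 27.0 in Control replicates 0, 1 and 2 and 84.3, 74.6 and 95.9 in GOF replicates 0, 1 and 2. Every GOF library was above every control, with a wide gap between the groups. This gave a log2 fold change of 1.78 (SE 0.17, edgeR adjusted p = 0.000748, n = 3 and 3). Within animal 9852 Gpc1 was 4.65-fold higher in the GOF culture, and within animal 9845 it was 3.12-fold higher. Without both cultures of animal 9852 the log2 fold change was 1.54 (SE 0.12, adjusted p = 0.000572). The call held in all 17 alternatives, with log2 fold changes from 1.54 to 1.96. An exact permutation test on log2(FPKM + 0.1) gave p = 0.1, the smallest that 3 against 3 libraries allow. Ankmy1, on the opposite strand, shares 977 exon bases with Gpc1 and held 2 to 5 fragments per library, against 3074 to 17498 for Gpc1.

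Gpc4, mutated in a human syndrome of the face and digits, was the leading glypican of the controls. It was at 50.8, 46.3 and 38.9 FPKM in the controls and 53.1, 32.8 and 65.8 FPKM in the GOF libraries. The groups overlapped, and the lowest and the highest value were both GOF libraries. Between groups Gpc4 had a log2 fold change of 0.13 (SE 0.24, edgeR adjusted p = 0.73), which turned to -0.08 without GOF replicate 2 and was 0.03 without both cultures of animal 9852. In both animals with a culture in each group the GOF culture was higher, by 1.29-fold in animal 9852 and 1.37-fold in animal 9845. With the animal as a replicate block the log2 fold change of Gpc4 was 0.38 (edgeR adjusted p = 0.0882).

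Gpc6 (chr14:116925315-117976544, plus strand), a glypican required for long bone growth, was at 17.7, 15.1 and 15.8 FPKM in the controls and 12.2, 9.53 and 14.6 FPKM in the GOF libraries. All GOF values lay below all control values, narrowly so for GOF replicate 2. By FPKM the GOF culture was 0.825 times the control in animal 9852 and 0.770 times in animal 9845. The ratio of the group means was 0.747. In edgeR the log2 fold change between groups was -0.55 (SE 0.14, adjusted p = 0.028), a larger fall than those ratios. The adjusted p was over 0.05 in 7 of the 17 alternatives, up to 0.122 with limma on log2(FPKM + 1). It was 0.0963 with a replicate block by label number, and 0.0719 to 0.09 when Control replicate 1 or 2 or GOF replicate 0 or 1 was left out. Without both cultures of animal 9852 it was 0.0132 at a log2 fold change of -0.60.

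Gpc3, mutated in an overgrowth syndrome, was nearly equal in both cultures of an animal. It was at 3.47, 6.82 and 8.75 FPKM in the controls and 8.24, 12.1 and 3.26 FPKM in the GOF libraries, so the lowest value of each group came from animal 9852. The GOF culture was 0.938 times the control in animal 9852 and 0.941 times the control in animal 9845. The log2 fold change between groups was 0.32 (SE 0.50, edgeR adjusted p = 0.694), the largest error among the members tested, and a replicate block by animal turned it to -0.12, as leaving out GOF replicate 1 turned it to -0.18. In the fit with the animal as a block, the animal terms of Gpc3 had an adjusted p of 0.0527, and those of 0.382% of all genes were under 0.05. This test was chosen after the data were seen. Gpc3 and Gpc4 are X-linked, Xist was at 16.6 to 33.4 FPKM in all 6 libraries, and the Y-linked Ddx3y and Eif2s3y were at 0 in all 6. A further pair of Y-linked genes, Kdm5d and Uty, held 12 to 24 and 9 to 45 fragments per library. Without both cultures of animal 9852 the log2 fold change of Gpc3 was 0.41 (adjusted p = 0.213).

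Gpc2, known from the developing nervous system, was at 2.70, 4.06 and 4.62 FPKM in the controls and 2.76, 2.26 and 3.04 FPKM in the GOF libraries. Control replicate 0 lay within the GOF range and the other controls lay above it. Gpc2 had a log2 fold change of -0.44 (SE 0.23, edgeR adjusted p = 0.208). It was -0.64 without Control replicate 0 (adjusted p = 0.0381) and -0.68 without both cultures of animal 9852 (adjusted p = 0.0302). Of the 17 alternatives, only these 2 had an adjusted p under 0.05. The GOF culture was 0.599 times the control in animal 9845 and 1.13 times the control in animal 9852. With the animal as a replicate block the log2 fold change of Gpc2 was -0.33 (edgeR adjusted p = 0.433). Gm43720, an annotated coding gene on the same strand, shares 2376 exon bases with Gpc2 and has no values in these data. Its level is therefore unknown and the fragments of Gpc2 are uncertain.

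Gpc5 (chr14:115092215-116525179, plus strand) lies 400 kb before Gpc6 and was near the limit of detection. It held 0, 1 and 2 fragments in the controls and 10, 9 and 1 fragments in the GOF libraries, which is at most 0.14 FPKM. With the controls set to a floor of 3 fragments per library, the GOF mean was 2.13 times that floor after scaling by library totals. This ratio takes no account of sampling noise, and GOF replicate 2 had 1 fragment, no more than 2 of the controls. In the edgeR fit without a filter on low counts the adjusted p of Gpc5 was 0.141.

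Summed over the 6 genes, glypican FPKM was 95.3, 96.8 and 95.2 in the controls and 161, 131 and 183 in the GOF libraries. Gpc1 was 25.1% ± 3.4 of the sum in the controls and 53.9% ± 2.5 in the GOF libraries (SD, n = 3), Gpc4 was 47.3% ± 6.3 and 31.3% ± 5.7, and Gpc6 was 16.9% ± 1.5 and 7.61% ± 0.37. Without Gpc1 the sums overlapped, at 74.7, 72.2 and 68.1 FPKM in the controls and 76.5, 56.8 and 86.7 in the GOF libraries. Shares depend on each other, so a lower share of Gpc4 goes with the higher level of Gpc1 and is no measure of Gpc4 RNA.

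**Figure D2:**
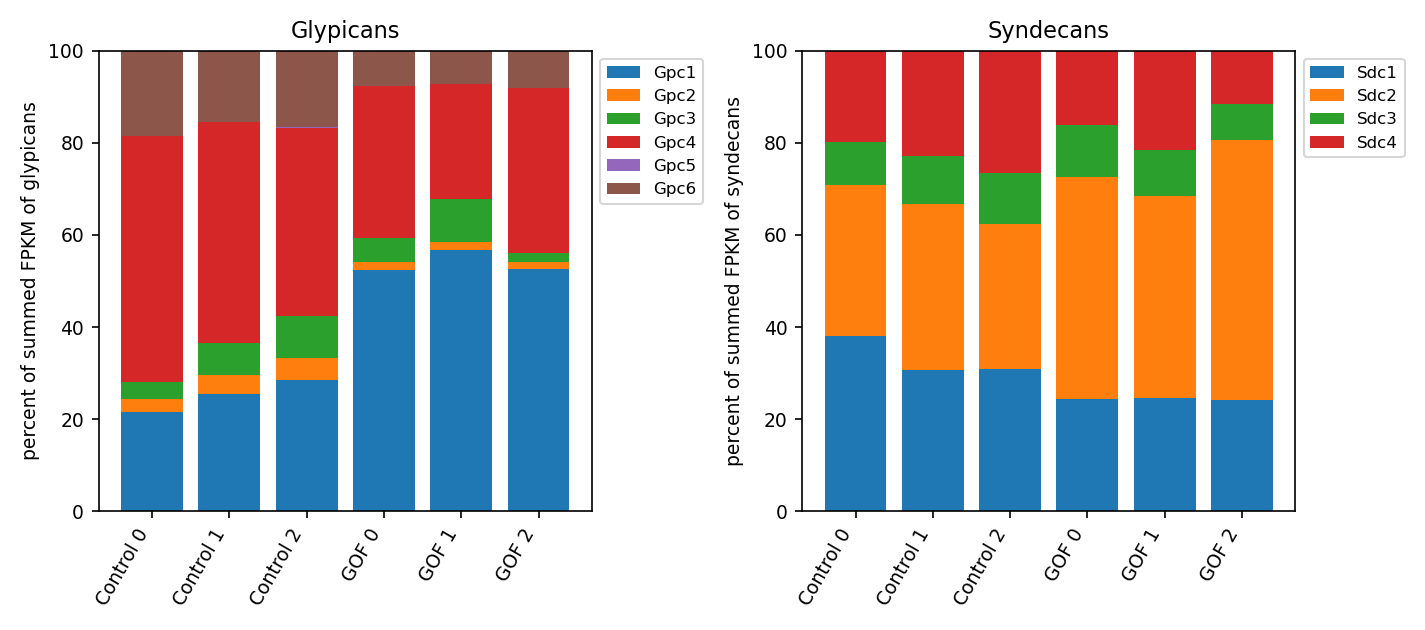
Share of each gene in the summed FPKM of the glypicans (left) and the syndecans (right), in percent, for each library. Gpc1 fills 21.6 to 28.4% of the glypican bar in the controls and 52.5 to 56.8% in the GOF libraries, and Sdc2 fills 31.5 to 36.1% and 43.9 to 56.5% of the syndecan bar.

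Sdc2 (chr15:32920723-33034935, plus strand) encodes the syndecan typical of mesenchymal cells, once named fibroglycan. It was at 66.4, 69.8 and 59.7 FPKM in the controls and 127, 109 and 191 FPKM in the GOF libraries. The groups did not overlap, and GOF replicate 2 lay far above the other GOF libraries. The log2 fold change was 1.15 (SE 0.19, edgeR adjusted p = 0.00571). Sdc2 was 2.87-fold higher in the GOF culture of animal 9852 and 2.13-fold higher in that of animal 9845. The adjusted p held in all 17 alternatives, but the fold change fell under 2 in 2 of them: the log2 fold change was 0.93 without GOF replicate 2 (adjusted p = 0.00711) and 0.98 without both cultures of animal 9852 (adjusted p = 0.0028).

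Sdc1, the main syndecan of epithelia and plasma cells, was as high as Sdc2 in the controls. It was at 77.5, 59.1 and 58.5 FPKM in the controls and 64.1, 60.9 and 81.6 FPKM in the GOF libraries, with the highest value of each group in animal 9852. Sdc1 had a log2 fold change of 0.07 (SE 0.19, edgeR adjusted p = 0.831), and also 0.07 without both cultures of animal 9852. In Control replicate 0 Sdc1 exceeded Sdc2, and in the other 5 libraries Sdc2 was the higher.

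Sdc4, which binds protein kinase C alpha in focal adhesions, was at 40.4, 44.1 and 50.3 FPKM in the controls and 42.6, 53.1 and 39.2 FPKM in the GOF libraries. Here the lowest value of each group came from animal 9852. Sdc4 had a log2 fold change of -0.01 (SE 0.14, edgeR adjusted p = 0.983), and 0.04 without both cultures of animal 9852.

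Sdc3 (chr4:130792537-130826319, plus strand), known from nerve and muscle, was at 19.0, 20.1 and 21.2 FPKM in the controls and 29.6, 24.8 and 26.3 FPKM in the GOF libraries. The groups did not overlap, with a log2 fold change of 0.38 (SE 0.13, edgeR adjusted p = 0.073), and 0.31 without both cultures of animal 9852 (adjusted p = 0.131). It was 1.38-fold higher in the GOF culture of animal 9852 and 1.40-fold higher in that of animal 9845, and the adjusted p was under 0.05 in 6 of 17 alternatives, 0.0441 without GOF replicate 1 and 0.0163 with limma-voom and an estimated correlation within animals. Gm26716, an antisense gene that shares 415 exon bases with Sdc3, was at 20.3, 18.0 and 20.3 FPKM in the controls and 28.8, 27.7 and 26.0 FPKM in the GOF libraries. Whether the counting used the strand is not stated, so reads of the pair cannot be told apart over those bases.

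Summed syndecan FPKM was 203, 193 and 190 in the controls and 263, 247 and 338 in the GOF libraries. Sdc2 was 33.4% ± 2.4 of it in the controls and 49.5% ± 6.4 in the GOF libraries (SD, n = 3). Without Sdc2 the sums were 137, 123 and 130 FPKM in the controls and 136, 139 and 147 in the GOF libraries, with GOF replicate 0 just inside the control range.

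**Figure D3:**
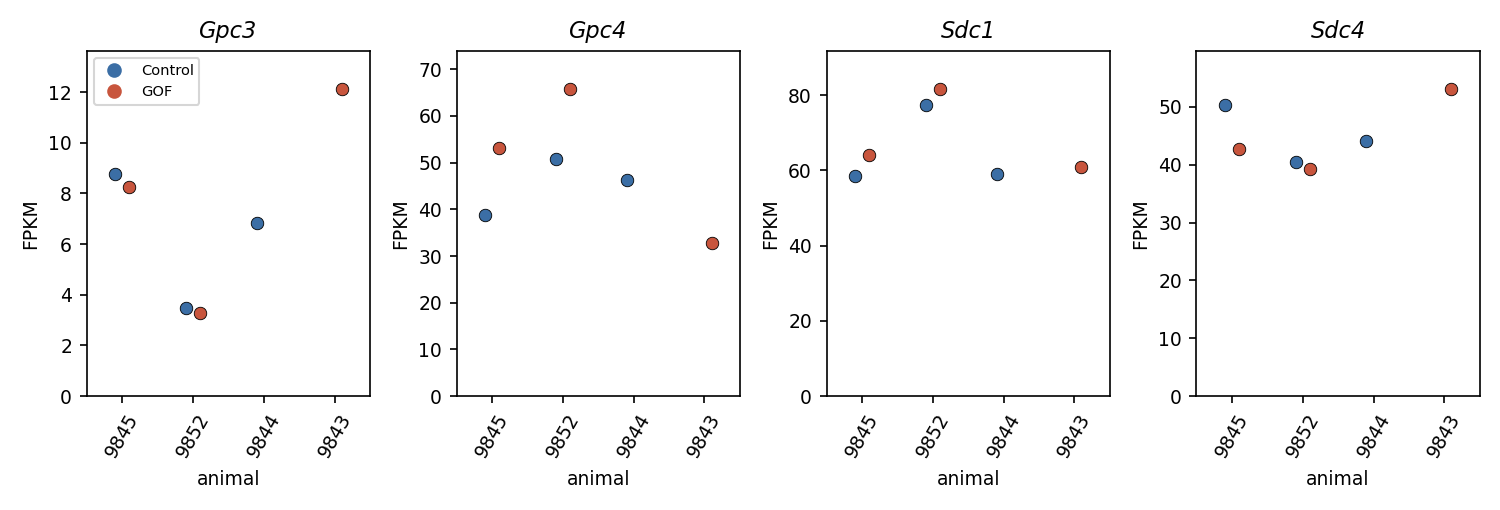
FPKM of Gpc3, Gpc4, Sdc1 and Sdc4 by animal, with controls in blue and GOF in red. Animals 9845 and 9852 have a culture in each group. Animal 9852 has the lowest Gpc3 and Sdc4 and the highest Gpc4 and Sdc1 of each group.

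Among the 9 members tested, 4 had control and GOF ranges that lay apart (Gpc1, Gpc6, Sdc2 and Sdc3), beside 39.5% of all genes tested. By mean FPKM the order in the controls was Sdc2 (65.3), Sdc1 (65.0), Gpc4 (45.3), Sdc4 (45.0), Gpc1 (24.1), Sdc3 (20.1), Gpc6 (16.2), Gpc3 (6.35), Gpc2 (3.79) and Gpc5 (0.01). The ranges of neighbours in that order overlapped for Sdc2 and Sdc1, Gpc4 and Sdc4, Gpc1 and Sdc3, and Gpc3 and Gpc2. In the GOF libraries the order was Sdc2 (142), Gpc1 (84.9), Sdc1 (68.9), Gpc4 (50.6), Sdc4 (45.0), Sdc3 (26.9), Gpc6 (12.1), Gpc3 (7.87), Gpc2 (2.69) and Gpc5 (0.08). There, neighbours from Gpc1 down to Sdc4 overlapped in turn, as did Gpc6 and Gpc3.

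Within-library log2 ratios of 6 pairs of relatives or neighbours were compared by exact two-sided permutation tests, which cannot go below p = 0.1. The ratio of Gpc4 to Gpc6 was 1.52, 1.61 and 1.29 in the controls and 2.11, 1.78 and 2.17 in the GOF libraries. The groups did not overlap (exact p = 0.1, 0.3 adjusted over the pairs). The ratio of Sdc2 to Sdc4 was 0.72, 0.66 and 0.25 in the controls and 1.57, 1.03 and 2.28 in the GOF libraries, again without overlap (exact p = 0.1, 0.3 adjusted). The ratio of Gpc3 to Gpc4 ranged from -3.83 to -2.14 in the controls and from -4.29 to -1.43 in the GOF libraries (exact p = 0.9). For Sdc1 to Sdc3, Gpc3 to Gpc5 and Gpc5 to Gpc6 the groups overlapped, with exact p of 0.3, 0.3 and 0.2, each 0.36 after adjustment.

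The genes that build and edit heparan sulfate chains were then counted. Of 37 listed genes 31 were tested, with 4 called higher and 2 lower and a median log2 fold change of 0.21, beside 6.69% of all genes called higher and 5.64% lower. At an adjusted p under 0.05 with any fold change, 6 were higher and 4 lower, beside 21.2% of all genes in either direction.

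**Figure D4:**
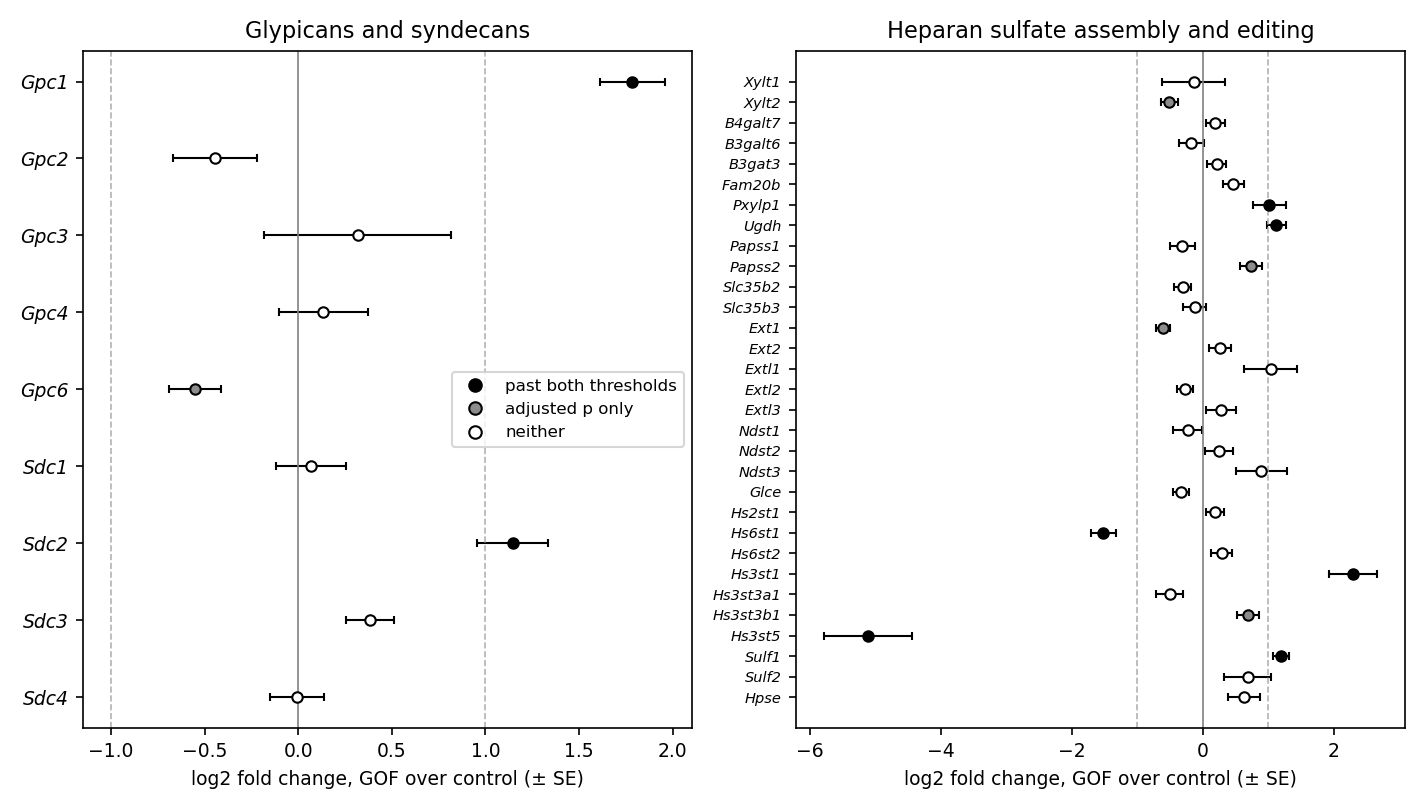
Log2 fold change of GOF over control with its SE from edgeR, for the 9 members tested (left) and the 31 genes of heparan sulfate assembly and editing tested (right). Filled points passed both thresholds, grey points the adjusted p alone, and dashed lines mark a fold change of 2. Gpc1 and Sdc2 are the filled points on the left, and Hs3st5 has the lowest value, -5.12, of the right panel.

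Among 12 genes of the linkage region and of precursor supply, all tested, 2 were called higher and none lower, beside 6.69% and 5.64% of all genes. At an adjusted p under 0.05 with any fold change, the called genes included, 3 were higher and 1 lower, beside 21.2% of all genes in either direction. Ugdh, which makes the UDP-glucuronic acid used in every chain, was at 59.4, 50.1 and 49.2 FPKM in the controls and 114, 125 and 104 FPKM in the GOF libraries (log2 fold change 1.13, SE 0.15, edgeR adjusted p = 0.00251). Blocking by animal brought it to 0.98, under a fold change of 2. Pxylp1, a phosphatase acting on the xylose of the linkage region, had a log2 fold change of 1.02 (SE 0.25, adjusted p = 0.0266) and was called in 7 of 17 alternatives, with an adjusted p of 0.0606 to 0.0861 when Control replicate 0 or 1 or GOF replicate 0 or 1 was left out. Blocking by animal brought it to 0.75 and an estimated correlation within animals to 0.88, both under a fold change of 2.

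Of the 5 chain polymerisation genes none was called, beside 12.3% of all genes. Ext1, which forms the chain polymerase with Ext2, was at 67.2, 62.6 and 56.7 FPKM in the controls and 39.6, 44.7 and 48.5 FPKM in the GOF libraries (log2 fold change -0.61, SE 0.11, edgeR adjusted p = 0.00825). Ext2 was at 27.3, 36.4 and 37.3 FPKM in the controls and 43.1, 37.6 and 45.2 FPKM in the GOF libraries (log2 fold change 0.27, SE 0.17, adjusted p = 0.301).

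Of 16 sulfation and epimerisation genes 11 were tested, with 1 called higher and 2 lower, beside 6.69% and 5.64% of all genes. Hs6st1, which adds 6-O-sulfate, fell from 13.7, 21.1 and 21.4 FPKM to 7.08, 6.69 and 6.39 FPKM (log2 fold change -1.52, SE 0.19, edgeR adjusted p = 0.0018). Hs6st2, the 6-O-sulfotransferase with the higher FPKM, was at 53.5, 67.1 and 55.9 FPKM in the controls and 67.5, 50.4 and 86.0 FPKM in the GOF libraries, and its log2 fold change was 0.29 (adjusted p = 0.252). It is named beside Hs6st1 after its values were seen. The 3-O-sulfotransferase Hs3st1 rose from 2.87, 4.72 and 5.13 FPKM to 24.6, 27.4 and 10.6 FPKM (log2 fold change 2.29, SE 0.37, adjusted p = 0.00524). A further 3-O-sulfotransferase, Hs3st5, held 50, 118 and 82 fragments in the controls and 5, 0 and 2 in the GOF libraries (log2 fold change -5.12, SE 0.68, adjusted p = 0.00248). With so few GOF fragments the size of this fold is uncertain: it was -6.23 without GOF replicate 0, and -0.85 with limma on log2(FPKM + 1), where it was no longer called. Ndst1, which starts sulfation by replacing acetyl groups, had a log2 fold change of -0.23 (SE 0.22, adjusted p = 0.501), with overlapping groups.

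Of the 4 extracellular editing genes 3 were tested and 1 was called, beside 12.3% of all genes. Sulf1, a sulfatase that removes 6-O-sulfate at the cell surface, rose from 50.3, 54.2 and 55.2 FPKM to 118, 115 and 116 FPKM, with little spread in either group (log2 fold change 1.20, SE 0.12, edgeR adjusted p = 0.000983). Sulf2, its relative, was at 15.8, 31.6 and 37.0 FPKM in the controls and 50.5, 26.6 and 57.4 FPKM in the GOF libraries (log2 fold change 0.69, SE 0.36, adjusted p = 0.223). With the animal as a replicate block, where animals 9845 and 9852 alone carry the comparison, Sulf2 passed both thresholds (log2 fold change 1.21, adjusted p = 0.0268). The GOF culture was 3.65-fold higher in animal 9852 and 1.36-fold higher in animal 9845. Without both cultures of animal 9852 the log2 fold change of Sulf2 was 0.17 (adjusted p = 0.66), and with limma-voom and an estimated correlation within animals it was 0.88 (adjusted p = 0.0779), so the call under the block rests on animal 9852. Heparanase, Hpse, which cuts the chains, was at 1.26 to 1.71 and 1.79 to 2.95 FPKM (log2 fold change 0.62, adjusted p = 0.114).

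**Figure D5:**
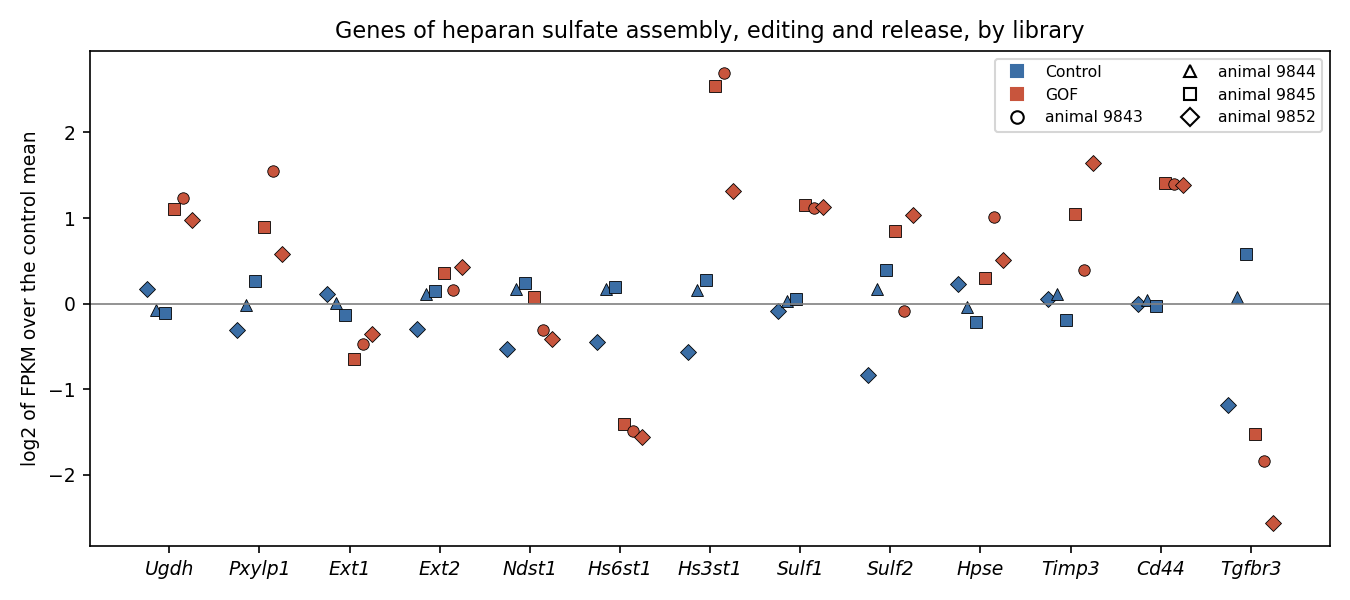
Log2 of FPKM over the control mean for 13 genes that assemble or edit heparan sulfate, affect its release or carry it, in each library, with controls in blue, GOF in red and symbols for the animal. The GOF points of Sulf1 and Cd44 lie close together, and those of Hs3st1, Sulf2 and Timp3 are spread.

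Of 10 genes that release proteoglycans from the cell surface or inhibit that release, 8 were tested, 2 were called higher and none lower. Among all genes 6.69% were called higher and 5.64% lower. At an adjusted p under 0.05 with any fold change, 2 were higher and 2 lower, beside 21.2% of all genes in either direction. Those lower were Adam17 (log2 fold change -0.64, edgeR adjusted p = 0.00819) and Bace1 (-0.61, adjusted p = 0.025), named after their values were seen. Mmp7 and Mmp9 did not pass the filter on low counts. Mmp7, also named after its values were seen, held 0 fragments in every control and 7, 37 and 4 in the GOF libraries. In the edgeR fit without that filter its adjusted p was 0.0174, and with controls at 0 the size of its fold is uncertain. Notum, a secreted esterase that removes the lipid from Wnts and was first described as acting on glypicans, held 5, 8 and 3 fragments in the controls and 54, 102 and 190 in the GOF libraries (log2 fold change 4.35, SE 0.60, edgeR adjusted p = 0.0028). Timp3, an inhibitor of the proteases that shed syndecans, was at 353, 366 and 296 FPKM in the controls and 702, 445 and 1055 FPKM in the GOF libraries (log2 fold change 1.10, SE 0.28, adjusted p = 0.0303). It was called in 9 of 17 alternatives, and its adjusted p was 0.0556 to 0.0946 when Control replicate 1 or 2 or GOF replicate 0 or 2 was left out. Without both cultures of animal 9852 the log2 fold change was 0.84 (adjusted p = 0.0354), under a fold change of 2.

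Of 10 further core proteins that can carry heparan sulfate 9 were tested, with 2 called higher and 1 lower, beside 6.69% and 5.64% of all genes. Cd44, the hyaluronan receptor, rose from 70.0, 72.1 and 68.7 FPKM to 187, 185 and 184 FPKM (log2 fold change 1.39, SE 0.12, edgeR adjusted p = 0.000452). Tgfbr3, betaglycan, fell from 9.96, 23.9 and 33.9 FPKM to 7.87, 6.30 and 3.82 FPKM (log2 fold change -1.89, SE 0.45, adjusted p = 0.0231). Its lowest value in each group was in animal 9852, and its adjusted p was over 0.05 in 6 of 17 alternatives, at 0.0525 to 0.0682 when any library but Control replicate 0 was left out, and 0.000969 without both cultures of animal 9852 (log2 fold change -1.96). Spock1, a testican, held at most 16 fragments in a library (log2 fold change 1.42, adjusted p = 0.0363) and was called in 3 of the 16 alternatives that could be run for it, none of them with a library left out (adjusted p 0.058 to 0.145). Of 10 cytoplasmic partners of syndecans, all tested, none was called and 1 passed the adjusted p alone. Among all genes 12.3% were called and 21.2% had an adjusted p under 0.05.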

How the data were processed

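The authors prepared stranded, paired-end libraries from total RNA, used TopHat to map the 100 bp reads to mm10, and quantified genes by Cuffdiff at standard settings. Whether their counting used the strand is not given in the sources used here. The expected counts deposited by the authors are fragments per gene and library without normalization. The FPKM values deposited by the authors were scaled by transcript length and between libraries by Cuffdiff. A further 3 columns of per-library values and the separate lncRNA table were not used.

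Symbols and positions came from GENCODE M21 (GRCm38, the same assembly as mm10), and 97.9% of identifiers had a symbol. A failed estimate left out 32 genes, none of them a member. The fragments, not whole in 4.95% of values (tolerance 1e-06), were rounded. They were tested in R 4.3.3 with edgeR 4.0.16 (filterByExpr, TMM, quasi-likelihood test, Benjamini-Hochberg adjustment over all genes). SE is the log2 fold change divided by the square root of F. Pair ratios and single genes were tested on log2(FPKM + 0.1) by exact permutation with SciPy 1.17.1. The alternatives used DESeq2 1.42.0 and limma 3.58.1, other scaling and filters, replicate blocks by label number or animal, and each library left out. The omission of both cultures of animal 9852, limma-voom with an estimated correlation within animals and the test of animal terms were chosen after the data were seen. The script was tested on simulated data. Figures were drawn with matplotlib 3.10.9.

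The members, gene lists and tests were chosen with earlier results of these data known. The text names all members, Axin2, Ctnnb1, Ext1, Ext2, Ndst1, Sulf1, Sulf2, Hpse and Notum, and up to 3 called genes of each other list, by smallest adjusted p. The labels name the animal of each culture. Deviations from the group means correlated positively across genes between cultures of one animal (r = 0.406 and 0.451). Between cultures of one label number r was -0.401, 0.0551 and -0.436. Deviations sum to 0 within a group, so these values depend on each other and the negative ones are no separate evidence. The block in the design is the animal that the labels name, kept as an alternative since 2 of 4 animals had a culture in both groups. p-values measure the spread between cultures, not all of which came from separate animals.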

Additional observations from a re-analysis of the deposited data

How the results depend on the processing

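Of 27 genes followed through the alternatives, 14 kept their direction and their call in all of those run. Gpc1 was called in every one. With Sdc2 under a fold change of 2, the count of members called went from 2 to 1 without GOF replicate 2 and without both cultures of animal 9852, and leaving out single libraries gave 1 to 2. The count of all genes called was 1906, and 877 with limma on log2(FPKM + 1), where the pseudocount shrinks the fold changes of low genes by construction. It was 1421 with a replicate block by label number, whose numbers do not pair the cultures, and 2008 with a replicate block by animal. The members called were Gpc1 and Sdc2 in both blocked fits.

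Directions turned for members close to 0 or with a large error. Blocking by animal gave Gpc3 a log2 fold change of -0.12. When single libraries were left out, the log2 fold change ranged from -0.18 (without GOF replicate 1) to 0.70 for Gpc3, from -0.080 (without GOF replicate 2) to 0.36 for Gpc4, from -0.098 (without GOF replicate 2) to 0.22 for Sdc1, which was also below 0 without Control replicate 2, from -0.14 to 0.090 (without GOF replicate 2) for Sdc4, and from -0.16 to 0.023 (without GOF replicate 0) for Ctnnb1. Sdc4 was at 0.0052 with DESeq2 and 0.036 without both cultures of animal 9852. Among the pairs, the difference in the log2 ratio of Gpc3 to Gpc5 turned from -0.44 to 0.10 with a pseudocount of 1, and that of Gpc3 to Gpc4, 0.11, ranged from -0.58 to 0.85 when a library was left out. The cause was not tested. Depth limits Gpc5, with at most 10 fragments in a library, and the genes listed at a few fragments.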
